A study of Arabidopsis thaliana with 30 samples.

Results

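The comparison described here asks which genes of ahp4 seedlings of Arabidopsis thaliana answered a cytokinin differently in roots and in shoots. It is a difference of differences: the change with 6-benzylaminopurine (BA, a synthetic cytokinin) against mock in ahp4 roots, minus the same change in ahp4 shoots. Of the 30 libraries of the series, 14 entered it: 4 BA and 4 mock libraries of roots, and 3 BA and 3 mock libraries of shoots. Of 33199 features in the deposited table, 13094 genes were examined, those with a mean of 3 FPKM or more in at least 1 treatment group of each organ (FPKM are fragment counts scaled by gene length and library depth, here by the authors). The lowest mean that decided inclusion was 3.00 FPKM (AT1G60160), and the highest that decided exclusion was 2.9986 FPKM (UCN). A further 2635 genes reached the level in roots alone and 1694 in shoots alone, and these were not examined. Of the genes examined, 897 reached the level through 1 treatment group alone in at least 1 organ, so their response in that organ was part of how they were chosen. Named genes of this kind in roots were PMAT1, CAX7, CRF5, IAA5, ARR15 and ARR16, through BA, and IPT3, LOG1, MYB28, MIR159b and UBP21, through mock. In shoots they were AHK4, AHP1, ARR5, ARR15, ARR16, GA3OX1, SPX1 and UBP21, through BA, and GH3.2, GH3.17, IAA5, SPS2F, WRKY48, GolS3, Prx37 and CXE20, through mock. For these the values are a description.

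The seedlings were 7 days old and spent 2 h in a liquid medium containing 0.1% DMSO, with 100 nM BA in the BA groups and no BA in the mock groups. They were cut at the hypocotyl into pools of roots and of shoots. Whether this was done before or after the treatment cannot be told from the labels, and root and shoot pools of the same number may share seedlings. The mutant carries ahp4-2, a mutant allele of the histidine phosphotransfer gene AHP4, and it is the sole mutant allele studied. The wild type, Col, was treated alike and gave 16 libraries, 4 for each organ and treatment. Separate cultures are not stated, so the p-values reflect how far these particular libraries spread, and part of that spread may be technical. The title of ahp4 root mock replicate 1 says ahp4 and mock while its characteristics say Col-0 and BA. It was kept under its title, and the counts of calls, the response classes and the overlap with Col are also given without it.

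Cytokinins bind sensor histidine kinases (AHKs). Phosphate then passes through histidine phosphotransfer proteins (AHPs) to type-B response regulators, transcription factors that switch on target genes, among them the type-A response regulators, which dampen the signal. In roots cytokinin is known for slowing growth, promoting differentiation and opposing auxin, and in shoots for promoting cell division, leaf growth and greening.

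The libraries held 9205127 to 13779004 reads, rebuilt from the deposited values. AHP4 itself had mean levels in ahp4 that were 0.239 to 0.376 times those in Col in the 4 organ and treatment pairs. The two-sided exact permutation p was 0.257 in BA roots, 0.0286 in mock roots (the smallest that 4 against 4 libraries can give), 0.0286 in BA shoots and 0.0571 in mock shoots. The levels of AHP4 in ahp4 rest on 6 to 47 reads per group, and the gene overlaps another annotated gene. The organ labels held: the 11 shoot markers summed to 219 to 383 FPKM in BA roots and 145 to 468 FPKM in mock roots of ahp4, against 60438 to 82046 FPKM in BA shoots and 73495 to 84118 FPKM in mock shoots. The 12 root markers summed to 6342 to 10419 FPKM in ahp4 roots and 390 to 714 FPKM in ahp4 shoots. None of the 11 shoot markers and none of the 3 root markers within the level limit passed the test of the organ difference, and the part of these transcripts in the results was not tested. In bulk tissue, fewer cells of a type and less RNA per cell cannot be told apart.

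The response differed between roots and shoots for 1189 of the 13094 genes (9.08%), by limma on log2(FPKM + 1) with a Benjamini-Hochberg adjusted p under the threshold of 0.05. The root response lay above the shoot response for 621 (4.74%) and below it for 568 (4.34%). Without ahp4 root mock replicate 1 there were 916 calls, and 896 of them were among the 1189. The share called was 12.8% of the 897 genes that entered through 1 treatment (115 genes) and 8.81% of the 12197 that reached the level in all 4 groups (1074 genes). Differences ran between -3.88 and 3.404 on the log2(FPKM + 1) scale, which understates changes of low genes, and 338 were of 1 or more in size. With libraries scaled by total reads the split became 471 above and 680 below, so the balance of the directions rests on the scaling.

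Most of the genes with an organ difference responded by the test in 1 organ only, 986 of 1189 (82.9%). There were 448 that rose with BA in roots, 316 that rose in shoots, 153 that fell in roots and 69 that fell in shoots. Another 20 rose in both organs to a different extent, 3 fell in both, and 32 moved in opposite directions, 20 of them up in roots and down in shoots. The remaining 148 were called in neither organ, and in each of these 148 the root and shoot values had opposite signs. Among all genes examined, 1225 rose and 763 fell in roots alone, and 544 rose and 254 fell in shoots alone. Only 147 rose and 108 fell in both organs, and all 32 that moved in opposite directions were among the 1189. Choosing genes by root minus shoot response favours those called in 1 organ or in opposite directions, so these shares are a description. Of all genes examined, 2275 (17.4%) passed the test in roots, 1392 up (10.6%) and 883 down (6.74%). Without ahp4 root mock replicate 1 the root count was 1819. In shoots, with 3 libraries a group and not 4, 1085 passed (8.29%), 703 up (5.37%) and 382 down (2.92%). The shoot count rests on single libraries: it was 596 without shoot mock replicate 2 (450 up and 146 down), 677 without shoot BA replicate 2 (500 up and 177 down) and 676 without shoot mock replicate 3 (501 up and 175 down), and scaling by total reads gave 699 up and 191 down. The classes rest on the same calls. Without these libraries in turn, rises in shoots alone numbered 202, 214 and 236 and falls in shoots alone 33, 32 and 27, and without ahp4 root mock replicate 1 there were 333 rises and 124 falls in roots alone and 255 rises and 65 falls in shoots alone. Across the 13094 genes the root and shoot responses had a Pearson r of 0.228, as a description, since genes are not independent replicates.

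**Figure D1:**
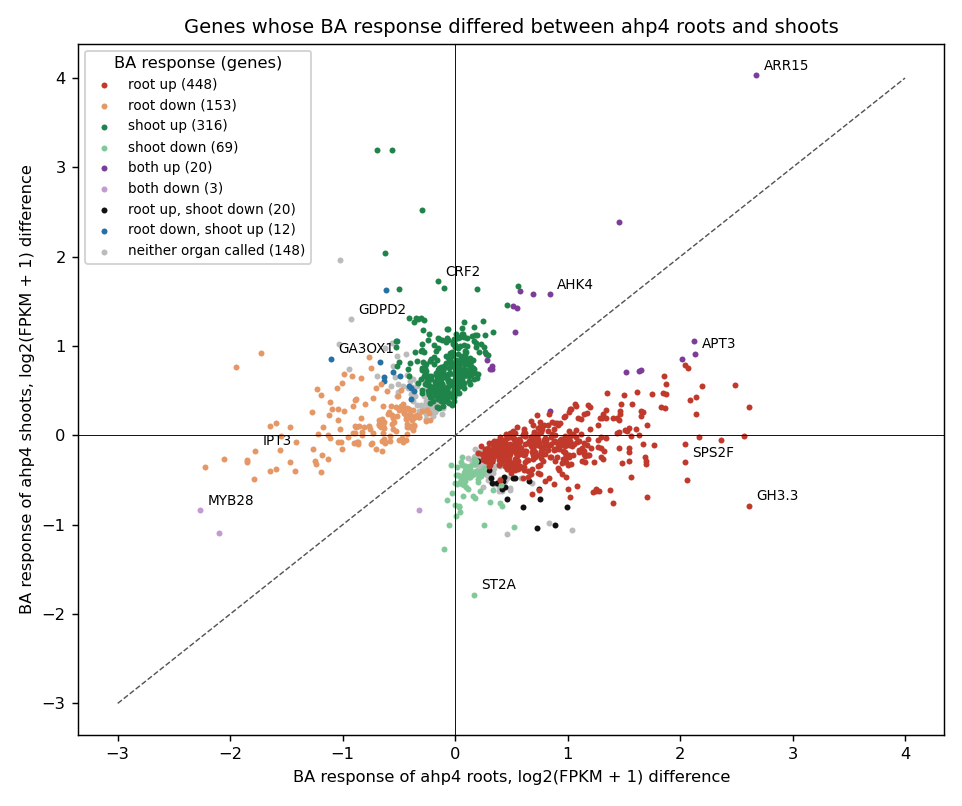
BA response in ahp4 roots (x axis) against BA response in ahp4 shoots (y axis), both as log2(FPKM + 1) differences of BA and mock, for the 1189 genes with an organ difference; colours give the organ or organs in which the response passed the test, and the dashed line marks equal responses. Most points lie near one of the axes, as for GH3.3, whose root response was 2.62 and shoot response -0.79, while ARR15 stands at 2.68 and 4.03.

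The receptors and phosphotransfer proteins came first in the pathway. AHK4, a cytokinin receptor best known from roots, rose with BA in both organs and more so in shoots, where it reached the level limit with BA alone. It had 32.3, 31.6, 35.7 and 33.7 FPKM in BA roots, against 16.0, 20.14, 19.5 and 17.1 FPKM in mock roots. In shoots AHK4 had 6.13, 6.12 and 5.08 FPKM with BA, against 1.37, 1.28 and 1.13 FPKM under mock. BA and mock libraries did not overlap in either organ. The organ difference of AHK4 was -0.74 ± 0.15 (SE; limma adjusted p = 0.00268), and with a pseudocount of 0.1, which compresses its low shoot levels less, it was -1.23. The other 2 receptor genes did not pass, AHK3 with 0.60 ± 0.21 (limma adjusted p = 0.0683) and AHK2 with -0.61 ± 0.21 (limma adjusted p = 0.0686). Of 4 AHP genes within the limit AHP3 passed, beside 9.08% of all genes. It had 0.55 ± 0.15 (limma adjusted p = 0.0171), a call that ended without ahp4 shoot mock replicate 3 (limma adjusted p = 0.0626). AHP3 overlaps another gene, so its reads are uncertain. AHP1, AHP2 and AHP5 had differences of -0.04 ± 0.24, 0.18 ± 0.16 and -0.23 ± 0.17 and did not pass, and AHP4 and AHP6, the member that inhibits the relay, were outside the limit.

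Among the response regulators, the type-A genes rose in both organs. All 8 within the limit rose by the test in roots and in shoots, beside 10.6% and 5.37% of all genes. ARR15 and ARR16, however, reached the limit with BA alone in both organs and ARR5 in shoots, so their rise was part of the choice. The other 5 reached it in all 4 groups. The 8 had a median response of 1.95 in roots and 2.48 in shoots, as a description. The median organ difference of the 8 was -0.54, beside 0.05 for all genes examined. By the test of that difference 2 of the 8 passed, both with the larger response in shoots, beside 4.34% of all genes. ARR4 had 150, 179, 198 and 183 FPKM in BA roots, against 49.4, 89.1, 67.5 and 54.6 FPKM in mock roots. Its shoot libraries held 154, 123 and 124 FPKM with BA, against 31.4, 24.0 and 19.8 FPKM under mock. The BA levels of the organs overlapped, with 123 to 154 FPKM in shoots and 150 to 198 FPKM in roots. The mock levels were lower in shoots without overlap, and BA and mock did not overlap in either organ. The organ difference of ARR4 was -0.93 ± 0.27 (limma adjusted p = 0.0324), and its call ended without root BA replicate 1, root mock replicate 2 or 3, shoot BA replicate 1 or shoot mock replicate 2 or 3 of ahp4 (highest limma adjusted p = 0.114), and with a replicate block (limma adjusted p = 0.0535).

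ARR15 was almost silent under mock in both organs. It had 6.71, 9.32, 6.76 and 7.23 FPKM in BA roots and 0.304, 0.303, 0.528 and 0.166 FPKM in mock roots. In shoots it had 23.0, 20.08 and 24.1 FPKM with BA and 1.24, 0.165 and 0.117 FPKM under mock. All BA values lay far above the mock values, and those of shoots above those of roots. Its organ difference was -1.35 ± 0.32 (limma adjusted p = 0.00778), but the call ended with a pseudocount of 0.1 (limma adjusted p = 0.251) and with limma voom on rebuilt reads (limma adjusted p = 0.415), so it rests on how mock levels near 0 are treated. ARR5, ARR7 and ARR16 had organ differences of -0.47 ± 0.43, -0.30 ± 0.50 and 0.15 ± 0.26 and did not pass. Neither did ARR6 (-1.07 ± 0.57), ARR8 (-0.62 ± 0.26) and ARR9 (-0.32 ± 0.23), which overlap other genes. Both remaining type-A genes lay outside the limit because shoots scarcely expressed them: ARR3 had 30.5 to 38.9 FPKM in BA roots and 8.73 to 10.5 FPKM in mock roots, ARR17 had 2.08 to 4.31 and 0 to 0.395 FPKM, and neither exceeded 0.288 FPKM in any ahp4 shoot library.

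Of the 4 type-B regulators within the limit ARR12 passed, with a larger rise in roots, beside 9.08% of all genes that passed in either direction. It had 28.2 to 31.9 FPKM in BA roots and 16.2 to 19.9 FPKM in mock roots, and 17.1 to 19.3 and 13.5 to 17.0 FPKM in BA and mock shoots (organ difference 0.50 ± 0.12, limma adjusted p = 0.0114). The cytokinin response factors, AP2/ERF transcription factors of which several are induced by cytokinin, had a median organ difference of -0.78 over 5 genes. Of these 2 passed, both with the lower response in roots, beside 4.34% of all genes. CRF2 had 5.72, 6.44, 4.54 and 5.34 FPKM in BA roots, against 8.45, 3.46, 7.41 and 6.601 FPKM in mock roots. With BA it reached 28.7, 23.3 and 27.2 FPKM in shoots, against 9.75, 7.88 and 4.89 FPKM under mock. The root groups of CRF2 overlapped and the shoot groups did not. Its organ difference was -1.88 ± 0.34 (limma adjusted p = 0.000826), the third lowest of the genes named by size. CRF5 had -1.11 ± 0.33 (limma adjusted p = 0.0331), a call lost with a pseudocount of 0.1, quantile normalization, a replicate block or limma voom and without any ahp4 library except root BA replicates 2 and 4, root mock replicate 4, shoot BA replicate 2 and shoot mock replicate 1 (highest limma adjusted p = 0.151).

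Some genes that make, release or tie up cytokinin also differed by organ. The median organ difference was -0.08 in the synthesis list and 0.06 in the breakdown and conjugation list, beside 0.05 for all genes. IPT3, an isopentenyltransferase that starts cytokinin synthesis, had 1.01, 1.34, 0.730 and 1.41 FPKM in BA roots, against 6.74, 5.34, 5.52 and 7.41 FPKM in mock roots. In shoots IPT3 had 10.8, 8.72 and 10.9 FPKM with BA, against 13.3, 12.2 and 9.32 FPKM under mock. IPT3 thus fell in roots with no overlap, while the shoot groups overlapped, and the organ difference was -1.60 ± 0.27 (limma adjusted p = 0.000466). LOG1, which releases the active base, had 0.713 to 1.48 FPKM in BA roots and 3.09 to 5.94 FPKM in mock roots, and overlapping shoot values of 5.25 to 13.1 and 6.38 to 10.7 FPKM. Its organ difference was -1.34 ± 0.37 (limma adjusted p = 0.0224), and the call ended without root mock replicate 3 or 4, shoot BA replicate 2 or shoot mock replicate 2 of ahp4 (highest limma adjusted p = 0.0977). Of 5 synthesis genes within the limit these 2 passed, both with the lower response in roots, beside 4.34% of all genes. None had the higher response in roots, beside 4.74% of all genes. Both called genes reached the limit in roots under mock alone. None of the 3 that reached it in all 4 groups passed.

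The N-glucosyltransferase genes UGT76C1 and UGT76C2, whose enzymes inactivate cytokinins, moved apart. UGT76C2 had 19.3 to 26.0 FPKM in BA roots and 12.1 to 18.1 FPKM in mock roots, and 40.4 to 54.4 FPKM in BA shoots and 14.7 to 16.9 FPKM in mock shoots. UGT76C2 rose in both organs, more in shoots (organ difference -0.93 ± 0.19, limma adjusted p = 0.00215). UGT76C1 rose in roots only, to 6.47 to 8.55 FPKM against 3.85 to 5.42 FPKM under mock, and had an organ difference of 0.79 ± 0.19 (limma adjusted p = 0.00913). APT3, an adenine phosphoribosyltransferase that can convert cytokinin bases, rose in both organs and more in roots. It had 85.7, 77.2, 82.4 and 59.2 FPKM in BA roots, against 16.5, 15.2, 17.8 and 16.4 FPKM in mock roots. Shoots held 69.2, 71.1 and 59.7 FPKM of APT3 with BA, against 38.6, 35.7 and 30.5 FPKM under mock. No BA library of either organ overlapped a mock library, and the organ difference was 1.21 ± 0.16 (limma adjusted p = 3.36e-05).

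**Figure D2:**
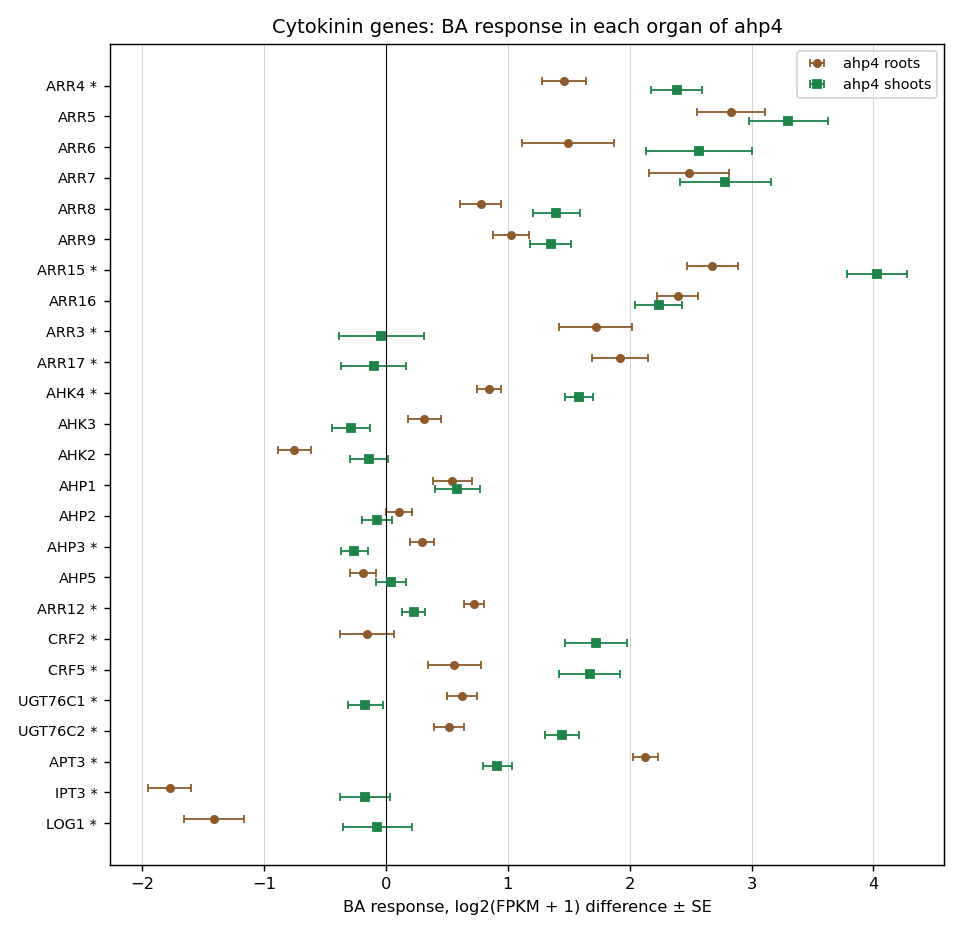
BA response of cytokinin genes in ahp4 roots (circles) and shoots (squares) as log2(FPKM + 1) differences with standard errors; an asterisk marks a limma adjusted p under 0.05 for the organ difference. ARR3 and ARR17, almost silent in shoots, were fitted but lie outside the level limit; CRF2 stands at -0.15 in roots and 1.73 in shoots, and IPT3 at -1.78 and -0.17.

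All 5 GH3 genes within the limit, which encode enzymes that tie auxin to amino acids, had the higher response in roots, beside 4.74% of all genes examined, with a median organ difference of 1.85. GH3.2 and GH3.17 reached the limit in shoots under mock alone. Over the alternative settings 4 or 5 of them passed. GH3.3 had 32.9, 36.4, 37.9 and 34.6 FPKM in BA roots, against 4.80, 4.74, 4.69 and 5.58 FPKM in mock roots. In shoots GH3.3 had 4.83, 22.4 and 13.7 FPKM with BA, against 9.94, 25.4 and 34.6 FPKM under mock. The root groups stood far apart and the shoot groups overlapped. Its organ difference of 3.404 ± 0.51 (limma adjusted p = 0.000148) was the highest of all 1189. GH3.5 and GH3.17 passed in both organs in opposite directions: GH3.5 averaged 51.1 ± 5.49 FPKM in BA roots and 28.1 ± 9.23 FPKM in mock roots (SD, n = 4 each), and 14.4 ± 5.90 FPKM in BA shoots and 29.3 ± 8.998 FPKM in mock shoots (SD, n = 3 each). The organ differences were 1.89 ± 0.37 for GH3.5 (limma adjusted p = 0.00158), 1.79 ± 0.32 for GH3.17 (limma adjusted p = 0.000843) and 1.85 ± 0.36 for GH3.6 (limma adjusted p = 0.00162), which rose in roots only.

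Among the 15 Aux/IAA genes within the limit, which encode repressors of the auxin response, 6 passed, all with the higher response in roots, beside 4.74% of all genes, and the median organ difference was 0.61. IAA5, 1 of the 6, reached the limit in roots with BA alone and in shoots under mock alone, so its values are a description. Of the 13 that reached it in all 4 groups 5 passed. Counts among the 15 ranged between 4 and 8 over the alternative settings, none of them in the other direction. IAA28 had 91.4 to 141 FPKM in BA roots and 58.6 to 83.7 FPKM in mock roots, beside overlapping values of 4.15 to 6.63 and 6.09 to 10.36 FPKM in shoots (response 0.67 in roots and -0.43 in shoots; limma adjusted p of the difference = 0.00453). IAA1 had a difference of 1.32 ± 0.37 (limma adjusted p = 0.0250), which did not pass without shoot BA replicate 1 or shoot mock replicate 2 or 3 of ahp4 (highest limma adjusted p = 0.0932). IAA3 (1.40 ± 0.32, limma adjusted p = 0.00538) and IAA5 (1.74 ± 0.46, limma adjusted p = 0.0172) overlap other genes. The IAA5 call ended without shoot BA replicate 1 or shoot mock replicate 3 (highest limma adjusted p = 0.0795), and its difference was 2.87 with a pseudocount of 0.1. Of 8 auxin carrier genes the efflux carrier gene PIN4 passed, beside 9.08% of all genes. PIN4 had 14.1 to 16.6 FPKM in BA roots and 5.51 to 6.36 FPKM in mock roots, and 38.0 to 44.7 and 42.6 to 55.9 FPKM in BA and mock shoots (organ difference 1.40 ± 0.18, limma adjusted p = 2.35e-05).

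**Figure D3:**
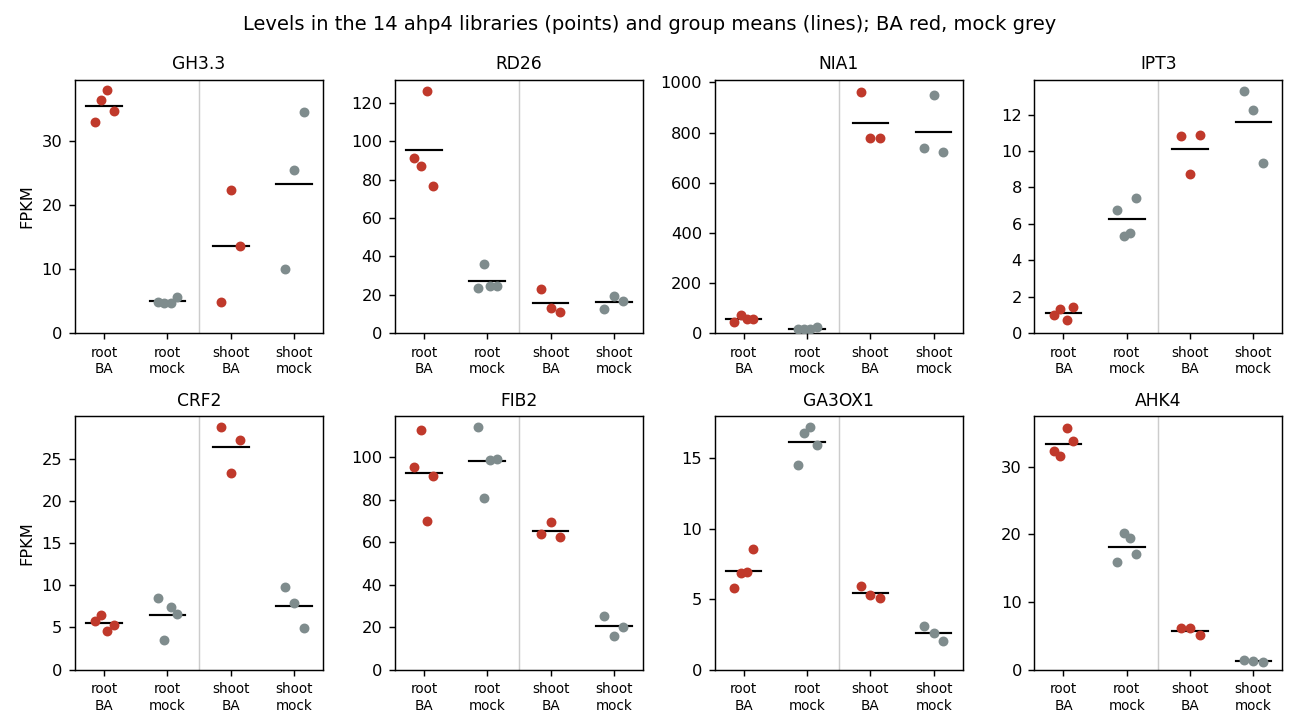
Levels in FPKM of 8 genes in each of the 14 ahp4 libraries (points) with group means (lines), roots left of shoots and BA left of mock in each organ. GH3.3, RD26 and NIA1 rose with BA in roots, IPT3 fell in roots, CRF2 and FIB2 rose in shoots, AHK4 rose in both, and GA3OX1 fell to 5.81 to 8.55 FPKM in BA roots and rose to 5.06 to 5.97 FPKM in BA shoots.

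Several genes of drying and abscisic acid rose in roots. Of 4 list members within the limit 3 passed, each with the higher response in roots, beside 4.74% of all genes, and the median organ difference was 1.73. RD26, a NAC transcription factor of drought and abscisic acid responses, had 91.2, 87.1, 126 and 76.7 FPKM in BA roots, against 23.5, 35.9, 24.7 and 24.6 FPKM in mock roots. In shoots RD26 had 23.0, 13.1 and 10.8 FPKM with BA, against 12.6, 19.5 and 16.9 FPKM under mock. The root groups did not overlap, the shoot groups did, and the organ difference was 1.88 ± 0.29 (limma adjusted p = 0.000193). RD29A, a stress-induced gene used as a reporter of drying and cold, had 190 to 358 FPKM in BA roots and 76.6 to 128 FPKM in mock roots, with an organ difference of 2.00 ± 0.49 (limma adjusted p = 0.00970). ABF3, a bZIP factor of abscisic acid signalling whose reads overlap another gene, had 1.58 ± 0.25 (limma adjusted p = 0.000307). HVA22E, of an abscisic acid-induced family, rose in roots and fell in shoots: it had 28.8 to 50.2 FPKM in BA roots and 17.7 to 24.4 FPKM in mock roots, and 3.22 to 6.19 FPKM in BA shoots and 6.97 to 14.8 FPKM in mock shoots (organ difference 1.76 ± 0.35, limma adjusted p = 0.00210).

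FMO GS-OX4, a monooxygenase of glucosinolate side chains, had 253 to 496 FPKM in BA roots and 62.1 to 95.3 FPKM in mock roots, with 2.57 ± 0.43 (limma adjusted p = 0.000452). PMAT1, a malonyltransferase of phenolic glucosides, had 9.47 to 16.2 and 0.640 to 2.36 FPKM in BA and mock roots, with 2.57 ± 0.43 (limma adjusted p = 0.000416). SPS2F, a sucrose phosphate synthase, had 31.3 to 75.1 and 8.35 to 14.6 FPKM, with 2.34 ± 0.33 (limma adjusted p = 6.83e-05). In all 3 of these genes the root groups stood apart and the shoot groups overlapped. The same held for ZF14, a MATE family transporter (2.42 ± 0.45, limma adjusted p = 0.00106), ACS7, an enzyme of ethylene synthesis (2.19 ± 0.59, limma adjusted p = 0.0185), GolS3, a galactinol synthase (2.02 ± 0.54, limma adjusted p = 0.0171), ELIP1, an early light-induced protein (1.98 ± 0.55, limma adjusted p = 0.0231), and CAX7, a cation exchanger (1.93 ± 0.26, limma adjusted p = 3.46e-05, and 3.36 with a pseudocount of 0.1). All of these genes were named for a high organ difference, so the pattern of their groups is a description. PMAT1 and CAX7 reached the level limit in roots with BA alone, and SPS2F, GolS3 and WRKY48 in shoots under mock alone. The ACS7 call ended without shoot BA replicate 2 (limma adjusted p = 0.0728) and with a pseudocount of 0.1 (0.0618), and that of GolS3 without shoot mock replicate 3 (0.0739) and with limma voom (0.117). That of ELIP1 ended without root BA replicate 3, root mock replicate 4, shoot BA replicate 2 or shoot mock replicate 1, with the 14 ahp4 libraries alone and with limma voom (highest limma adjusted p = 0.0948). WRKY48, a transcription factor called in neither organ, had 7.51 to 12.1 FPKM in BA roots and 2.84 to 5.46 FPKM in mock roots, and 0.600 to 2.37 FPKM in BA shoots and 2.52 to 7.95 FPKM in mock shoots. Its difference was 2.099 ± 0.62 (limma adjusted p = 0.0314), lost without root BA replicate 1 or 4, root mock replicate 3 or 4, shoot BA replicate 2 or shoot mock replicate 2 or 3 (highest 0.114), with a replicate block (0.0515) and with limma voom (0.0933).

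Falls in shoots alone were the smallest of the classes called in 1 organ. ST2A, a sulfotransferase of hydroxyjasmonate, had 19.1 to 37.7 FPKM in BA roots and 20.4 to 29.3 FPKM in mock roots, and 9.52, 12.4 and 20.4 FPKM in BA shoots against 24.8, 46.2 and 99.9 FPKM in mock shoots. The shoot mock libraries of ST2A spread widely, and its organ difference of 1.95 ± 0.54 (limma adjusted p = 0.0229) did not pass without shoot BA replicate 1 or 2 or shoot mock replicate 3 (highest limma adjusted p = 0.103). CXE20, of the carboxylesterase family, had a tighter pattern, with 2.41 to 2.46 FPKM in BA shoots against 5.17 to 6.79 FPKM in mock shoots and overlapping root values of 11.1 to 14.7 and 9.18 to 11.4 FPKM (1.26 ± 0.22, limma adjusted p = 0.000617). It reached the level limit in shoots under mock alone, so its fall there was part of the choice.

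Of the 8 nucleolar and HD2 histone deacetylase genes 7 rose in shoots, beside 5.37% of all genes, none passed in roots, and 6 had the lower response in roots by the test of the organ difference, beside 4.34% of all genes, with a median of -0.83. FIB2, a fibrillarin of ribosomal RNA processing, had 95.5, 113, 70.1 and 91.1 FPKM in BA roots, against 114, 80.8, 98.8 and 99.02 FPKM in mock roots. In shoots FIB2 had 63.6, 69.5 and 62.3 FPKM with BA, against 25.2, 16.0 and 19.99 FPKM under mock. The root groups overlapped and the shoot groups stood far apart, with an organ difference of -1.75 ± 0.19 (limma adjusted p = 4.79e-06). HDT4, an HD2 histone deacetylase, had 30.7, 40.1 and 33.2 FPKM in BA shoots against 15.4, 10.6 and 15.8 FPKM in mock shoots, and 22.9 to 30.3 and 31.1 to 44.2 FPKM in BA and mock roots (-1.64 ± 0.21, limma adjusted p = 2.35e-05). NOP56, a core protein of snoRNA particles, had -1.11 ± 0.15 (limma adjusted p = 4.08e-05) and NUC1, a nucleolin, -0.84 ± 0.15 (limma adjusted p = 0.000781). Of the 6 called members HDT4 alone overlaps no other gene, so the reads of FIB2, NOP56, NUC1, HDA3 and HDT2 are uncertain.

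Of 14 wall-loosening genes within the limit 3 passed (XTH17, XTH8 and EXPA6), each with the lower response in roots, beside 4.34% of all genes, and all 3 calls ended without ahp4 shoot mock replicate 3. Those of XTH8 and EXPA6 also ended without shoot BA replicate 2, and that of EXPA6 without root BA replicate 3 (highest limma adjusted p = 0.0963). The xyloglucan enzyme gene XTH17 rose in shoots, to 7.31 to 12.01 FPKM against 2.54 to 4.15 FPKM under mock, with an organ difference of -1.73 ± 0.46 (limma adjusted p = 0.0166; 0.0557 without shoot mock replicate 3). Outside that list, the related XTH31 fell in roots, to 51.4 to 81.9 FPKM against 94.8 to 146 FPKM under mock, and its shoot values of 9.02 to 18.7 with BA and 4.62 to 7.44 FPKM under mock did not pass on their own (-1.65 ± 0.40, limma adjusted p = 0.00851). FAH1, a hydroxylase of syringyl lignin and sinapate synthesis, had 7.43 to 12.6 FPKM in BA roots and 20.9 to 35.3 FPKM in mock roots, with overlapping shoot groups (-1.75 ± 0.33, limma adjusted p = 0.00136). Prx37, a peroxidase, had 9.21 to 18.1 and 43.8 to 69.9 FPKM in BA and mock roots (-1.79 ± 0.38, limma adjusted p = 0.00356; 0.0852 with limma voom). C/VIF2, an invertase inhibitor, rose in shoots, with 38.5 to 56.0 FPKM with BA against 18.3 to 19.3 FPKM under mock, beside overlapping root values (-1.66 ± 0.27, limma adjusted p = 0.000371).

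The lowest difference among the named genes was that of GDPD2, a glycerophosphodiester phosphodiesterase. It had 137, 91.7, 53.6 and 107 FPKM in BA roots, against 144, 226, 193 and 152 FPKM in mock roots. Its shoot libraries held 50.7, 45.6 and 28.3 FPKM with BA, against 15.6, 9.69 and 25.6 FPKM under mock. The groups overlapped in neither organ, but neither response passed on its own. The organ difference of -2.23 ± 0.61 (limma adjusted p = 0.0214) was lost without root BA replicate 3, shoot BA replicate 2 or shoot mock replicate 2 (highest limma adjusted p = 0.0814). ERD5, a proline dehydrogenase, also responded in neither organ by the test and had -1.69 ± 0.54 (limma adjusted p = 0.0480). Its call ended without any ahp4 library other than root BA replicate 1 and shoot mock replicate 3, with a pseudocount of 0.1, with no filter and with limma voom (highest limma adjusted p = 0.144). MIR159b, the precursor of a microRNA that acts on GAMYB-like factors, had 1.32 to 3.69 FPKM in BA roots and 5.41 to 10.5 FPKM in mock roots, with -1.73 ± 0.47 (limma adjusted p = 0.0181; 0.0751 without shoot BA replicate 3 and 0.0565 with limma voom).

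GA3OX1, the enzyme of the last step to active gibberellin, had the lowest difference of the named genes among the 12 that fell in roots and rose in shoots. It had 5.81, 6.84, 6.92 and 8.55 FPKM in BA roots, against 14.5, 16.8, 17.2 and 16.0 FPKM in mock roots. In shoots, where it reached the level limit with BA alone, GA3OX1 had 5.97, 5.30 and 5.06 FPKM with BA, against 3.07, 2.57 and 2.07 FPKM under mock. No BA library overlapped a mock library in either organ, and the root and shoot levels lay close together with BA. The organ difference was -1.96 ± 0.27 (limma adjusted p = 4.21e-05), past the test under each of the 22 alternatives. UBP21, a ubiquitin protease (-1.26 ± 0.19, limma adjusted p = 0.000177), and ACL, of the methyl esterase family (-1.24 ± 0.24, limma adjusted p = 0.00170), had the same pattern. Among the genes that rose in both organs, CAX1, a vacuolar calcium exchanger, had 85.2 to 91.7 FPKM in BA shoots against 23.7 to 31.4 FPKM in mock shoots, and 9.21 to 11.4 FPKM in BA roots against 5.72 to 7.57 FPKM in mock roots (-1.04 ± 0.18, limma adjusted p = 0.000688).

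The nitrate list had 2 called genes of 5 within the limit, beside 9.08% of all genes examined. The phosphate list had 1 of 4, the aliphatic glucosinolate list 1 of 5 and the indole glucosinolate list 1 of 7. NRT1.1, a nitrate transporter and sensor, fell to 57.6, 68.7, 75.3 and 79.8 FPKM in BA roots, against 160, 312, 227 and 182 FPKM in mock roots, with 64.6 to 71.3 FPKM in BA shoots and 72.3 to 113 FPKM in mock shoots (-1.22 ± 0.26, limma adjusted p = 0.00416). NIA1, a nitrate reductase, rose to 45.2, 70.1, 55.6 and 56.3 FPKM in BA roots, against 17.7, 14.3, 16.8 and 23.5 FPKM in mock roots, while BA shoots held 778 to 963 FPKM and mock shoots 721 to 951 FPKM (1.54 ± 0.26, limma adjusted p = 0.000485). The transporter and the reductase thus moved in opposite directions in roots, and neither passed in shoots. SPX1, of phosphate sensing, had -1.59 ± 0.39 (limma adjusted p = 0.0101) and lost its call with the 14 ahp4 libraries fitted alone (limma adjusted p = 0.0529) and with limma voom (0.0556). MYB28, the regulator of aliphatic glucosinolate synthesis, fell in both organs and more in roots, to 1.43 to 2.91 FPKM against 10.39 to 17.2 FPKM under mock, with 3.502 to 9.79 and 11.97 to 13.5 FPKM in BA and mock shoots (-1.43 ± 0.33, limma adjusted p = 0.00613). CYP81F2, which hydroxylates indole glucosinolates, rose in roots, to 12.7 to 31.7 FPKM against 4.96 to 6.88 FPKM (1.69 ± 0.38, limma adjusted p = 0.00550).

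Single members were called in further lists, beside 9.08% of all genes examined. HRE1, a factor of the low oxygen response that overlaps another gene, had -1.53 ± 0.38 (limma adjusted p = 0.0114), 1 of 8 in its list. CYCD1;1, a D-type cyclin that also overlaps another gene, had -1.16 ± 0.27 (limma adjusted p = 0.00648), 1 of 12 cell cycle genes. HEMA1, for an early step of chlorophyll synthesis, rose in roots, to 41.8 to 53.4 FPKM against 26.1 to 31.5 FPKM under mock (0.65 ± 0.16, limma adjusted p = 0.0132; 0.0537 without shoot BA replicate 3). Beside it the shoot marker LHCB2.1 had 7.59 to 21.9 FPKM in BA roots and 1.92 to 13.8 FPKM in mock roots, a response that passed in roots (1.72, limma adjusted p = 0.00725), while its organ difference of 1.73 ± 0.69 did not (limma adjusted p = 0.119), and the part of this transcript in the HEMA1 result was not tested. PAD4, a defence regulator, had -0.65 ± 0.19 (limma adjusted p = 0.0293), which did not pass without root BA replicate 2, root mock replicate 2, shoot BA replicate 3 or shoot mock replicate 2 (highest limma adjusted p = 0.0972). The 3 list members ERS2, BTS and APR2 had 0.74, 0.70 and -0.75 (limma adjusted p = 0.0371, 0.0309 and 0.0499). Their calls ended without any 1 of 10, 8 and 10 ahp4 libraries. Scaling by total reads ended those of ERS2 and BTS, quantile normalization those of BTS and APR2, and limma voom those of ERS2 and APR2. That of ERS2 also ended with a replicate block. That of APR2 ended with a pseudocount of 0.1, with no filter and with the 14 ahp4 libraries alone. Limma called 0 of the 28 genes within the limit in the sugar exporter, cytokinin transport, secondary wall, LBD and DOF, root meristem, clock and reference lists. Of these 1 had an unadjusted p under 0.05, and limma voom called 0. Over the other alternatives at most 1 gene was called in the cytokinin transport list and 1 in the clock list.

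**Figure D4:**
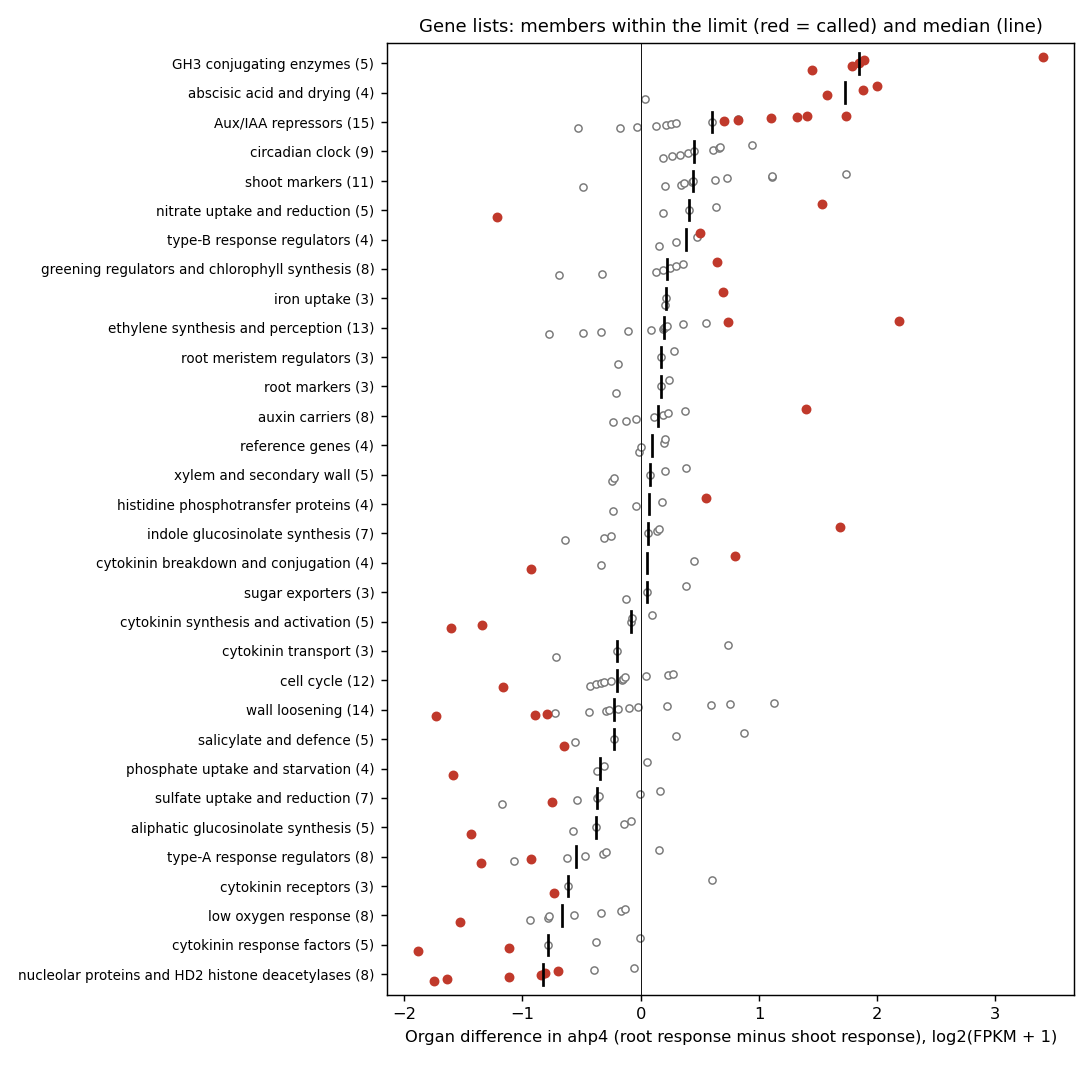
Organ difference in ahp4 (root response minus shoot response, log2(FPKM + 1)) of the members of each gene list with at least 3 genes within the limit; filled points passed the test, open points did not, and a line marks the list's median. The GH3 list lies highest, with a median of 1.85, and the nucleolar list lowest, with -0.83, against 0.05 for all genes examined.

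The organ difference was then set beside that of Col, from libraries that the ahp4 comparison does not use, though both share the scaling and the fit. In Col 1653 of the 13094 genes passed (12.6%), 783 with the higher response in roots (5.98%) and 870 with the lower (6.64%). The calls of both genotypes had 801 genes in common, 67.4% of those in ahp4 and 48.5% of those in Col, and all 801 had the same sign. Without ahp4 root mock replicate 1 there were 650 in common, 71.0% of the calls in ahp4 and 39.9% of those in Col. Of the 1189 genes called in ahp4, 1183 had the same sign in Col (99.5%), beside 78.3% of all genes examined. Across the 1189 genes the Pearson r between the genotypes was 0.941, and across all 13094 it was 0.804, as a description, since genes are not independent and the 1189 were chosen for their difference in ahp4. GH3.3 had an organ difference of 3.404 ± 0.51 in ahp4 and 3.62 ± 0.48 in Col, and FIB2 of -1.75 ± 0.19 and -1.60 ± 0.18.

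The difference between the genotypes was tested itself. By limma 0 of the 13094 genes passed (0%), and limma voom also called 0. Within the limit 234 genes (1.79%) had an unadjusted p under 0.05, and 192 did with limma voom. The 3 named genes with the smallest p were GRXS17, a glutaredoxin, with an organ difference of -0.63 ± 0.14 in ahp4 and 0.01 ± 0.13 in Col, NRPB9B, a subunit of RNA polymerase II, with 0.01 ± 0.25 and -1.14 ± 0.23, and BOB1, a protein of the heat shock machinery, with 0.49 ± 0.14 and -0.11 ± 0.13. Each had a limma adjusted p of 1.00. A p that misses the threshold does not show that the genotypes respond alike: the standard error of the genotype difference was 0.70 for GH3.3 and 0.46 for CRF2.

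**Figure D5:**
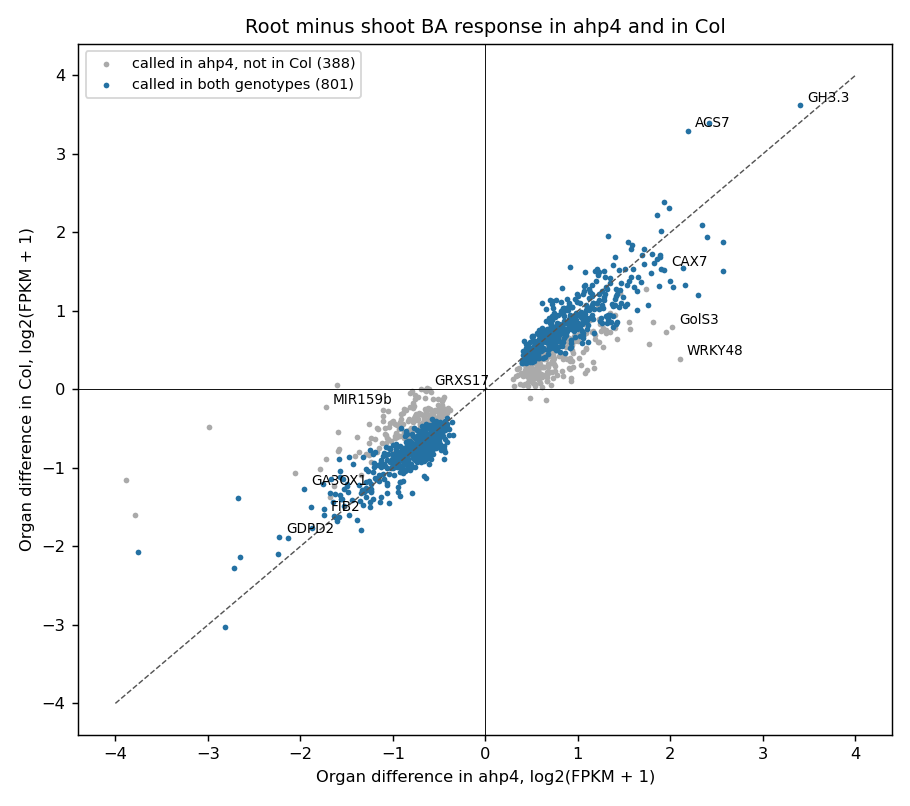
Organ difference of the BA response in ahp4 (x axis) and in Col (y axis), log2(FPKM + 1), for the 1189 genes called in ahp4, the 801 that were also called in Col in blue; the dashed line marks equal values. All but 6 points have the same sign in both genotypes.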

How the data were processed

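The authors' deposited table gives FPKM values per gene and library; FPKM are scaled by gene length and, as the values show, by median-of-ratios factors over the 30 libraries. Genome build TAIR10 was named in the submitters' processing notes. Aligner, counting tool and strand handling: not given in the sources used here. Whole reads could be rebuilt for 100% of expressed features within 0.01 reads, for depth and an added alternative. Gene names came from the TAIR10.1 annotation, matched for 32548 codes. Overlaps between genes were read from the gene positions of that annotation, and no sequences were used.

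Genes with 1 FPKM or more in at least 3 libraries (20818) were fitted with limma 3.58.1 in R 4.3.3, with a mean-variance trend, on log2(FPKM + 1) over all 8 groups of organ, genotype and treatment. P-values were adjusted by Benjamini-Hochberg over all genes fitted, and the 13094 genes within the level limit are described. Errors are SE for differences and SD for levels. Tables and figures used python 3.11.15, numpy 2.4.6, pandas 2.3.3 and matplotlib 3.10.9.

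The comparison, the 33 lists and the rule for naming genes were chosen with earlier results of these data known. The rule named, among called genes with a symbol and no overlap, the 12 highest and 12 lowest, the 3 largest of each response class, up to 4 called members per list or the one with the smallest p, and the 3 with the smallest p between genotypes. Type-A regulators, AHPs and receptors were named regardless.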

Additional observations from a re-analysis of the deposited data

Results flagged for a closer look

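The BA response differed between roots and shoots of ahp4 for 1189 of the genes examined, by the test of the difference itself described above.

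In 4 of 68 root groups checked, over the 24 genes of highest and lowest difference and the 10 type-A genes, 1 library stood far from the other 3; chance gives about 1 in 20. GH3.3 had 5.58 FPKM in ahp4 root mock replicate 4, against 4.69 to 4.80 FPKM in the other mock replicates. SPS2F had 14.6 FPKM in ahp4 root mock replicate 2, against 8.35 to 8.97 FPKM. FAH1 had 20.9 FPKM in ahp4 root mock replicate 1, the library whose labels disagree, against 32.4 to 35.3 FPKM. In BA roots FAH1 had 7.43 to 12.6 FPKM, all below that library. For GH3.3, ARR15 and IPT3 the same library lay among the other mock roots and far from the BA roots, by the values given above. Which of its labels is right was not tested. ARR5 had 203 FPKM in ahp4 root BA replicate 3, against 166 to 170 FPKM.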

How the results depend on the processing

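No alternative moved the count of 1189 organ differences in ahp4 by over 1.5 times. It was 895 with limma voom on rebuilt reads (chosen after seeing the data; 893 shared), 1056 with a pseudocount of 0.1, 1285 with quantile normalization and 1151 with total reads, and 807 to 1588 without 1 library (lowest without ahp4 shoot mock replicate 2). The edgeR test was not run, since the table holds FPKM. Of 19 same-numbered ahp4 pairs 5 had deviations correlated over 0.1 (r -0.16 to 0.30), so the numbers were not used as a pairing, and whether they mark shared seedlings cannot be told; with a replicate block 1155 genes were called. The counts without 1 library were 1750 to 2276 for roots, 596 to 1115 for shoots (596, 677 and 676 without shoot mock replicate 2, shoot BA replicate 2 or shoot mock replicate 3) and 1221 to 1655 for Col, and 0 throughout for ahp4 minus Col. Total reads gave 699 higher and 191 lower in shoots, and quantile normalization 1349 and 1417 in roots. Requiring a log2 difference of 1 left 159, 49, 69 and 7 genes for root up, root down, shoot up and shoot down, 5 for both up, 11 for root up with shoot down and 28 for neither. Of 70 named calls 42 held under all 22 alternatives, 28 ended under 1 or more, 7 of them without ahp4 root mock replicate 1, and none changed sign.

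Signs changed for 4 genes that did not pass: AHP1 (0.012 with quantile normalization, -0.21 to 0.17 without 1 library), TMO6 (-0.00030 with quantile normalization, -0.0081 with total reads, -0.051 with limma voom, -0.19 to 0.20 without 1 library), NRPB9B (-0.063 with quantile normalization, -0.063 with total reads, -0.22 to 0.20 without 1 library) and ARR16 (-0.041 to 0.29 without 1 library). The AHP4 comparison lost significance without an ahp4 library in mock roots (log2 -0.63 to -0.36 without 1 library of either genotype, exact permutation p = 0.0571) and without any library in BA shoots (-1.12 to -0.84, exact permutation p = 0.0667 or 0.100, the smallest possible). The cause was not tested, apart from the fewer samples. Depth limits genes such as AHP4 that rest on few reads.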

Other observations

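The families in this section were chosen after their values were seen, and they are described with no test of the family.

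Of 7 PYR/PYL genes, for abscisic acid receptors, within the limit, 5 had the lower response in roots and none the higher, beside 4.34% and 4.74% of all genes, with a median organ difference of -1.03. The 5 became 3 without root BA replicate 3, shoot BA replicate 1 or shoot mock replicate 3 of ahp4. PYL7 lay on the other side, with 0.90 ± 0.30 (limma adjusted p = 0.0575), and 1 gene was called higher with quantile normalization, the 14 ahp4 libraries alone, a replicate block or without root mock replicate 2. In roots PYL7 reached the level limit with BA alone and PYL2 under mock alone. PYL4 had 47.5, 50.9, 36.8 and 76.8 FPKM in BA roots, against 100.5, 121, 118 and 103 FPKM in mock roots. In shoots PYL4 had 182, 164 and 145 FPKM with BA, against 130, 140 and 130 FPKM under mock. The groups overlapped in neither organ, and the organ difference was -1.38 ± 0.24 (limma adjusted p = 0.000706). PYL5 and PYL6 had -1.14 ± 0.26 and -1.58 ± 0.35, and PYR1 had -0.84 ± 0.23. The PYR1 call ended without root BA replicate 3, shoot BA replicate 1 or shoot mock replicate 3 of ahp4, and that of PYL2 (-1.03 ± 0.31) without 9 of the 14 ahp4 libraries, with a pseudocount of 0.1 (limma adjusted p = 0.0518), with no filter or the 14 ahp4 libraries alone (0.0534 each) and with limma voom (0.0916). Of 4 clade A phosphatase genes, negative regulators of this pathway, 2 had the higher response in roots, beside 4.74% of all genes. HAB1 had 17.2 to 32.6 FPKM in BA roots against 11.5 to 13.8 FPKM in mock roots, and ABI1, which overlaps another gene, had 71.2 to 131 FPKM against 41.9 to 51.1 FPKM. Their organ differences were 1.16 ± 0.28 and 1.45 ± 0.21 (limma adjusted p = 0.00851 and 8.76e-05).

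Of 8 genes for protein arginine methyltransferases (PRMTs) 6 had the lower response in roots, beside 4.34% of all genes, and the median organ difference was -0.66. In shoots 6 rose, beside 5.37% of all genes, and none passed in roots, beside 17.4%. Of the 6 with an organ difference 4 overlap another gene (PRMT1A, PRMT3, PRMT11 and PRMT4A), so their reads are uncertain. PRMT10, which overlaps no other gene, had -0.71 ± 0.15 and PRMT4B -0.74 ± 0.15. Of 64 snoRNA genes within the limit 14 had the lower response in roots and none the higher, beside 4.34% and 4.74% of all genes. The libraries were made from polyadenylated RNA, and 3 of the 14 overlap another gene. Limma voom on rebuilt reads called 7. Without ahp4 shoot mock replicate 3 the count was 9. Of 15 tau glutathione transferase genes 4 had the higher response in roots and 1 the lower, beside 4.74% and 4.34% of all genes. These counts were 2 and 0 with limma voom, which ended the calls of GSTU18, GSTU26 and GSTU27, and 6 and 1 without ahp4 shoot BA replicate 1. GSTU19 had 1420 to 1987 FPKM in BA roots and 688 to 904 FPKM in mock roots.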
